A study of Mus musculus with 6 samples.

Results

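Small ubiquitin-like modifiers (SUMO) and the enzymes that attach and remove them were described in Dnmt3b+/- peripheral T-cell lymphoma (PTCL) of mice. The 8 genes were chosen by symbol, as Sumo2, Sumo3, Sae1, Uba2, Pias1, Pias4, Senp1 and Senp6, and all 8 were found among the 34245 genes of the expression table. RNA-seq was performed on 3 independent PTCL from lymph nodes of terminally sick FVB mice with a germline knockout of a single Dnmt3b allele, numbered here as tumors 1, 2 and 3. The age of the mice was not given in the sources used here. Each tumor was a bulk sample, and no control library was analysed here, so the values describe a single group and no p-values are given. Expression was given as FPKM, the fragments on the exons of a gene corrected for exon length and library depth. The depth recovered from these values was 30726570, 18969988 and 20770928 reads in tumors 1, 2 and 3, so tumor 1 was the deepest library.

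SUMO proteins are conjugated to lysines of other proteins, often in the nucleus, where they alter protein interactions, transcription, DNA repair and chromosome segregation. The precursor is trimmed by a SUMO protease to expose a pair of glycines, activated by the heterodimer of Sae1 and Uba2 (E1) and then placed on the target with the help of ligases (E3) such as the PIAS proteins. Proteases of the SENP family release SUMO again, and the closely related Sumo2 and Sumo3 can form chains.

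Dnmt3b, the targeted gene, had 0.975, 1.55 and 1.25 FPKM in tumors 1, 2 and 3. It was detected in every tumor, and since FPKM covers all exons these values do not separate the intact from the targeted allele. The T-cell label was checked on 9 markers, which summed to 1187, 893 and 1282 FPKM, with Cd8b1 as the most abundant gene by its mean over tumors, at 435, 166 and 443 FPKM. In tumor 2 Lck was above it, with 208 FPKM. Although the sum was lowest in tumor 2, 4 of the 9 markers, Cd3e, Cd3g, Cd5 and Lck, were highest there. None of the 9 T-cell markers was near 0 in any tumor. Cd4 was the lowest of them by its mean and varied most, with 28.4, 4.28 and 8.22 FPKM.

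The coding sequences of Sumo2 and Sumo3 show how closely the modifiers resemble each other. Sequences were taken from GRCm38.p6 with GENCODE M21 coding exons and are printed 5′ to 3′ on the coding strand. The first 48 coding bases are given here, with capitals for a SUMO acceptor site, that is, a codon for valine, isoleucine or leucine followed by a lysine codon, any codon and a glutamate codon.
Sumo2: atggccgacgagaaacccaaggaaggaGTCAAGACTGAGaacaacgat
Sumo3: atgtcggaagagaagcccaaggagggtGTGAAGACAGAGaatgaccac
Sumo2 and Sumo3 each held 1 such site in this stretch, with the lysine at codon 11.

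At the other end, capitals mark the codons of the 2 glycines that become the end of the mature protein, and the bases after them are removed with the precursor's tail.
Sumo2 end: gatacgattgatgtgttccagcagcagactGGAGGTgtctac
Sumo3 end: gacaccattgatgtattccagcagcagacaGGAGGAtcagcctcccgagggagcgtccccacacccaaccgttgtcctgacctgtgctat
The tail was 2 codons in Sumo2 and 18 in Sumo3. Over 282 aligned bases, Sumo2 and Sumo3 were identical at 234, or 83.0%.

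Sumo2 was by far the most abundant of the 8 genes. The gene (ENSMUSG00000020738) lies on the minus strand of chromosome 11 of GRCm38, at chr11:115523102-115536276. It had 130.2, 74.0 and 100.005 FPKM in tumors 1, 2 and 3, with a mean of 101 ± 28.1 (SD, n = 3), from 6944, 2437 and 3606 reads. Tumor 1 was highest and tumor 2 lowest, and the 95% Poisson intervals of 127 to 133, 71.1 to 77.0 and 96.8 to 103 FPKM did not overlap. Such intervals cover counting error only, not the spread between animals. The mean of Sumo2 was above that of 99.3% of all genes in the table, at rank 255. Tumor 1 had 1.76 times the FPKM of tumor 2, with a 95% counting interval of 1.68 to 1.84. The median gene with a mean of at least 1 FPKM was also higher in tumor 1, by 0.18 on the log2 scale against tumor 2 and by 0.24 against tumor 3. Relative to that median, Sumo2 was 1.56 times higher in tumor 1 than in tumor 2. In a bulk tumor, fewer cells of a type and less RNA per cell cannot be told apart.

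The Sumo2 level is uncertain in a further way. The genome holds 12 other stretches of at least 90% identity over at least 90% of its coding sequence, 5 of them at 98% or more, including 1 that is identical. Reads that match several places receive a low mapping quality and were filtered out by the authors, and how many Sumo2 reads were lost in this way was not tested. Sumo3 had 1 such stretch at 91.1%, and none was found for the other 6 of the 8 genes.

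**Figure D1:**
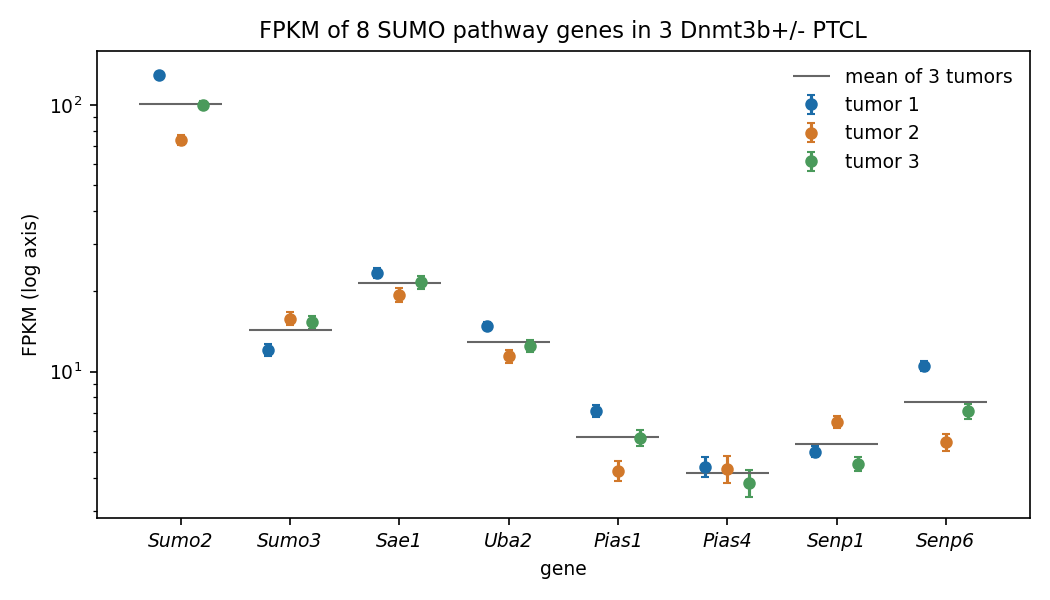
FPKM (log axis) of the 8 genes in tumors 1, 2 and 3 as points with 95% Poisson intervals, which cover counting error only, and the mean of 3 tumors as a line. Sumo2 lies at 74.0 to 130.2 FPKM, above every other gene shown.

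The window of 250 bases before and 50 after the start of Sumo2 is shown because it is rich in CpG, the dinucleotide that Dnmt3b methylates. RefSeq on GRCm38.p6 places it on the minus strand at chr11:115536181-115536480, and capitals mark CG.
Sumo2 promoter: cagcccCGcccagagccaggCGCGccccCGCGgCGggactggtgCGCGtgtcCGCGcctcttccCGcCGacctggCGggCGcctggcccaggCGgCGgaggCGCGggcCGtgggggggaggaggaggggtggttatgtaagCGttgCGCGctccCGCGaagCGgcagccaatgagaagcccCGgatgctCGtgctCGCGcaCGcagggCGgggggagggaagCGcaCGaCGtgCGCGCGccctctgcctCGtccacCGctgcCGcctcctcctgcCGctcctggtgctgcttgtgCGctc
It held 42 CG, and 3.03% of 32851 promoters of the same length held as many. Of the 8 genes, 6 were matched to a promoter. Taking for each the promoter nearest its start in the expression table, all 6 lay above the median of 7 CG, with 15 to 42, although that promoter was 7045 bases from the start for Pias1 and 1070 for Uba2. Of the promoters not taken, another of Sumo3 held 2 CG. Methylation of these promoters was not analysed here.

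Sumo3 ran the other way. This gene (ENSMUSG00000020265), on the plus strand at chr10:77606097-77641543, had 12.02, 15.8 and 15.3 FPKM, with a mean of 14.4 ± 2.05 (SD, n = 3). It was lowest in tumor 1, while tumors 2 and 3 were within counting error of each other, with a ratio of 0.967 (95% counting interval 0.892 to 1.05) for tumor 3 over tumor 2. Relative to the median gene, Sumo3 in tumor 1 was 0.673 times its level in tumor 2. The gene model of the table ends at 77641543, beyond the end of Sumo3 at 77618331 in GENCODE M21, and whole reads were recovered only when the read-through gene Gm49325 was joined to it. That model adds 166 bases, all of them in exons of Ube2g2, which had 12.3, 11.2 and 15.7 FPKM, so a part of the Sumo3 reads may belong to Ube2g2.

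The proportion of Sumo2 to Sumo3 differed between tumors. Tumor 1 had 10.8 times as much Sumo2 as Sumo3, tumor 2 had 4.68 times and tumor 3 had 6.54 times. These ratios do not depend on how the libraries are scaled, but they do depend on the reads lost to copies of each gene.

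The subunits of the E1 enzyme had the same order of tumors in FPKM, though not with median-of-ratios factors. Sae1 (ENSMUSG00000052833, chr7:16320234-16387806, minus strand), which pairs with the catalytic subunit, had 23.5, 19.4 and 21.7 FPKM, with a mean of 21.5 ± 2.05 (SD, n = 3). Uba2 (ENSMUSG00000052997, chr7:34140688-34169599, minus strand), the catalytic subunit, had 14.8, 11.4 and 12.5 FPKM, with a mean of 12.9 ± 1.76 (SD, n = 3). Both were highest in tumor 1 and lowest in tumor 2. With these factors, which equalise the typical gene, Uba2 was still highest in tumor 1, but Sae1 was highest in tumor 3, with 22.8 against 21.6 in tumor 1. The ratio of Sae1 to Uba2 was 1.58, 1.70 and 1.74, so the transcripts of the heterodimer kept a similar proportion in each tumor.

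Of the ligases, Pias1 and Pias4 differed in their spread. Pias1 (ENSMUSG00000032405, chr9:62878368-62987924, minus strand), a SUMO ligase found in the nucleus, had 7.10, 4.24 and 5.63 FPKM, with a mean of 5.66 ± 1.43 (SD, n = 3). Pias1 in tumor 1 was 1.68 times that in tumor 2 (95% counting interval 1.52 to 1.85). Pias4 (ENSMUSG00000004934, chr10:81153266-81167923, minus strand) had 4.39, 4.29 and 3.82 FPKM, with a mean of 4.17 ± 0.305 (SD, n = 3). Pias4 had the smallest coefficient of variation of the 8 genes, 0.0733, and its differences between tumors were not detectable at this depth, with 293 to 498 reads. Pias1 over Pias4 was 1.62, 0.987 and 1.47 in tumors 1, 2 and 3. Over all 4 PIAS genes the sum was 20.1, 14.5 and 14.3 FPKM, of which Pias1 held 35.3%, 29.3% and 39.3%.

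The proteases Senp1 and Senp6 differed in opposite directions between tumors 1 and 2. Senp1 (ENSMUSG00000033075, chr15:98038744-98093744, minus strand), which both matures precursors and releases conjugated SUMO, had 5.01, 6.48 and 4.51 FPKM, with a mean of 5.33 ± 1.02 (SD, n = 3). Senp6 (ENSMUSG00000034252, chr9:80066903-80144953, plus strand), which trims chains of Sumo2 and Sumo3, had 10.5, 5.44 and 7.09 FPKM, with a mean of 7.67 ± 2.56 (SD, n = 3). Senp1 was highest in tumor 2, where Senp6 was lowest. Senp6 in tumor 1 was 1.92 times that in tumor 2 (95% counting interval 1.77 to 2.10), and Senp1 in tumor 1 was 0.773 times that in tumor 2 (95% counting interval 0.721 to 0.829). The ratio of Senp6 to Senp1 was 2.09, 0.840 and 1.57 in tumors 1, 2 and 3. Since both values come from the same library, this ratio does not depend on scaling. The 6 SENP genes together had 50.8, 39.9 and 38.1 FPKM, and Senp3 held the largest share, with 30.2%, 28.4% and 27.0%. On the opposite strand, exons of Gm26513 and Pfkm share 462 and 18 bases with Senp1, and those of Gm17477 share 108 bases with Senp6. The strand of the library was not given in the sources used here, so reads on these shared bases cannot be told apart.

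**Figure D2:**
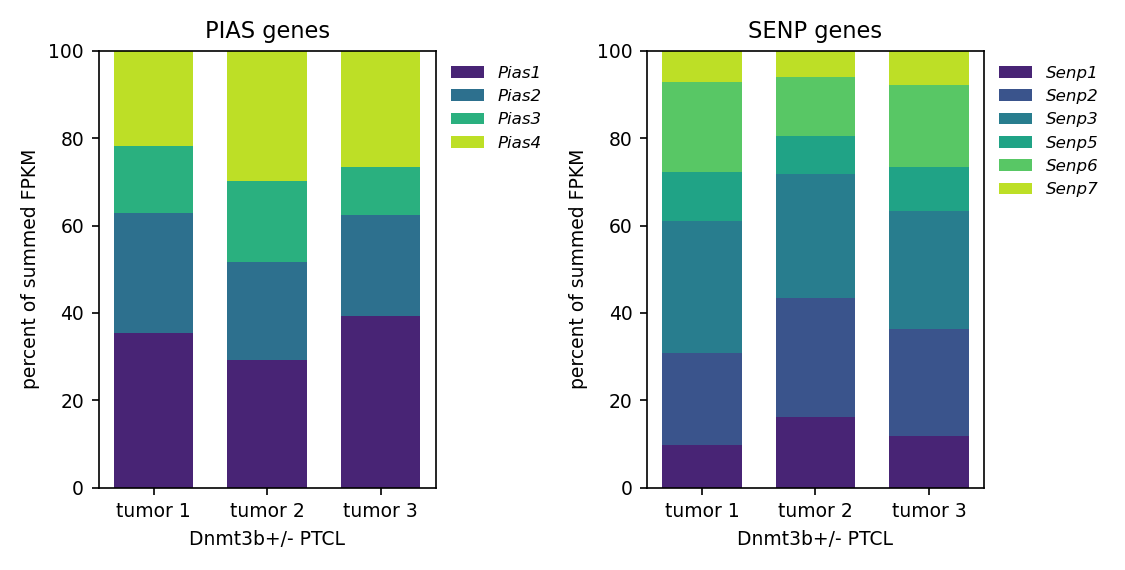
Stacked bars of the percent of summed FPKM in each tumor, for 4 PIAS ligase genes on the left and 6 SENP protease genes on the right. Pias1 takes 29.3% to 39.3% of the PIAS sum, and Senp6 is lowest in tumor 2 with 13.6% of the SENP sum.

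By their mean FPKM the 8 genes fell in the order Sumo2, Sae1, Sumo3, Uba2, Senp6, Pias1, Senp1 and Pias4. The ranges over tumors overlapped between the neighbours Sumo3 and Uba2, Senp6 and Pias1, and Pias1 and Senp1, and not between the other neighbours. Within each tumor, however, Senp6 was above Pias1 in all 3, while Sumo3 was above Uba2, and Pias1 above Senp1, in 2 of 3.

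None of the 8 genes, 0 of 8, had a highest tumor at least 2 times its lowest, against 34.4% of 11197 genes with a mean of at least 1 FPKM. At a fold of 1.5 it was 3 of 8 (Sumo2, Pias1 and Senp6), against 62.8% of all genes. Tumor 1 was highest for 6 of 8 genes, against 50.6% of all genes, and tumor 2 for Sumo3 and Senp1, against 33.7%. Tumor 2 was lowest for 5 of 8, against 38.3%. With median-of-ratios factors tumor 1 was highest for 4 of 8, namely Sumo2, Uba2, Pias1 and Senp6, against 39.0% of all genes. The order tumor 1, tumor 3, tumor 2 was seen in 5 of 8 genes, against 30.2% of all genes, and was picked out after the values were seen. Set against the shift of the median gene, 5 of 8 genes were higher in tumor 1 than in tumor 2, and 4 of 8 higher than in tumor 3. The median splits all genes evenly by definition, and both counts lie close to such a split. The median coefficient of variation was 0.167 over the 8 genes and 0.268 over all genes. The comparison was not matched for level, as the median of the mean FPKM was 10.3 over the 8 genes and 5.70 over all genes.

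**Figure D3:**
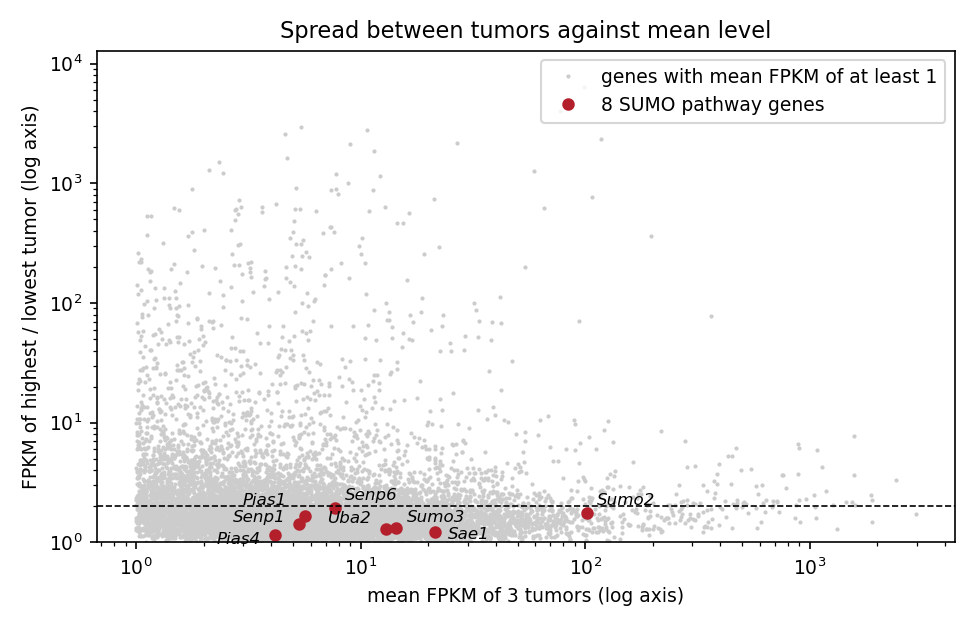
FPKM of the highest tumor over the lowest against the mean FPKM of 3 tumors, both on log axes, for 11197 genes (grey) and the 8 SUMO pathway genes (red), with a dashed line at a ratio of 2. All 8 genes lie below the line.

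**Figure D4:**
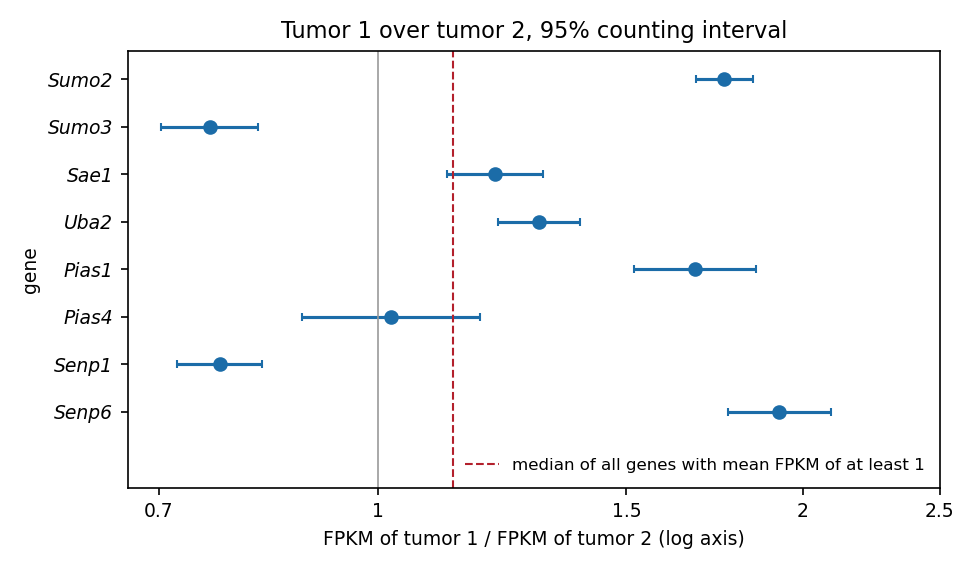
FPKM of tumor 1 over tumor 2 on a log axis, with 95% counting intervals, for the 8 genes, and the median of all genes as a dashed line. Sumo2 lies at 1.76 and Senp6 at 1.92, while Sumo3 and Senp1 lie below 1.

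A wider list of 31 sumoylation genes, made of the 8 genes and 23 others, was counted in the same way. Of these, 30 passed the filter of a mean of at least 1 FPKM that was set for all genes. A highest tumor at least 2 times the lowest was found for 2 of 31 genes, against 34.4% of all genes. It was 6 with FPKM rescaled to a common sum, against 39.4%, 0 without tumor 1, against 16.4%, and 0 without tumor 2, against 17.7%. Desi2, a deSUMOylating peptidase with 4.24, 1.93 and 2.83 FPKM, was 1 of the 2. Tumor 1 was highest for 22 of 31 genes, against 50.6% of all genes, and for 20 with median-of-ratios factors, against 39.0%. The median coefficient of variation was 0.218, against 0.268 over all genes. It was 0.0831 without tumor 1, against 0.193 over all genes, but 0.201 without tumor 2, against 0.208. Here too the level was not matched, with a median of the mean FPKM of 7.62 over the 31 genes and 5.70 over all genes. Among the most abundant of the 23 others were Trim28, a corepressor with ligase activity, at 31.3, 34.1 and 29.4 FPKM, and the PIAS-like Zmiz2 at 26.0, 27.9 and 26.0 FPKM. Zmiz2 varied least of all 31 genes, with a coefficient of variation of 0.0417.

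**Figure D5:**
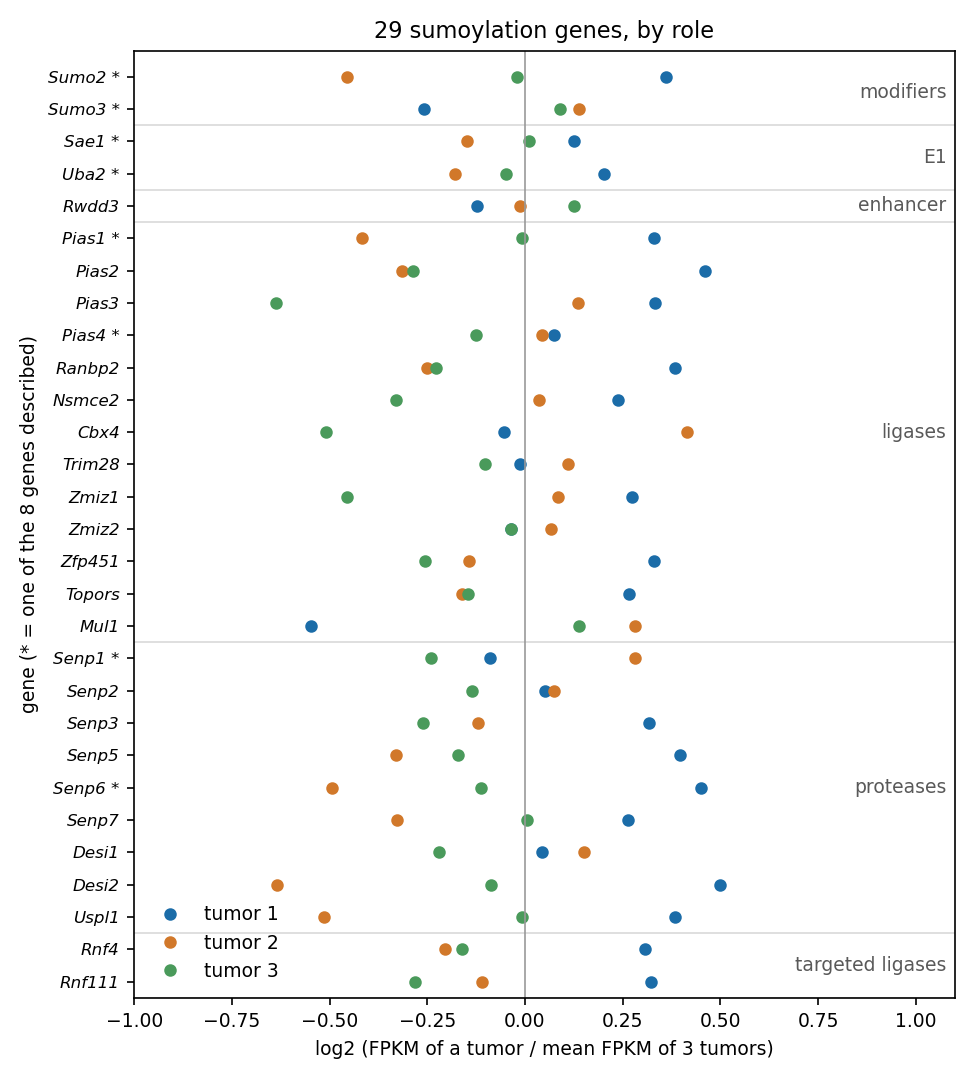
The log2 ratio of each tumor's FPKM to the mean of 3 tumors, for 29 sumoylation genes grouped by role, with an asterisk at the 8 genes described. Tumor 1 (blue) is the highest point for 20 of these 29 genes.

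Among 3431 other genes with a mean of at least 10 FPKM, those closest to Sumo2 in their pattern over the 3 tumors were Tpm3, Dusp11, Isg20l2, Cbfb and Snx2. Closeness was the Euclidean distance between log2(FPKM + 1) values centred on their mean, and it was 0.0108 for Tpm3, with 96.3, 55.2 and 74.3 FPKM. With 3 tumors many genes come close, and 79 of the 3431, or 2.30%, lay within 0.1 of Sumo2. Of the 8 genes, those with enough FPKM to be ranked were Uba2 at rank 615, Sae1 at 787 and Sumo3 at 2136. The distance of the others was computed after the data were seen, and Senp6 lay at 0.0946, within 0.1, Pias1 at 0.125, Pias4 at 0.571 and Senp1 at 0.833. The 1 added to FPKM weighs more at the low level of Senp6. Without it, the log2 ratios of tumor 1 to tumors 2 and 3 were 0.94 and 0.56 for Senp6, against 0.81 and 0.38 for Sumo2.

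Related systems and known SUMO targets were set beside Sumo2, each list with its most abundant genes by their mean over tumors. Nedd8 had 56.6, 58.3 and 76.8 FPKM, so that Sumo2 over Nedd8 was 2.30, 1.27 and 1.30. Of 12 NEDD8 pathway genes, with Nedd8, Rbx1 and Ube2m the most abundant, 3 had a highest tumor at least 2 times the lowest, against 34.4% of all genes. Of 6 UFM1 pathway genes with a mean of at least 1 FPKM, led by Ddrgk1, Ufc1 and Ufm1, it was 1. Of 11 SUMO targets and partners, led by Pcna, Sp100 and Rangap1, it was 4, or 36.4%, close to the share over all genes. Tumor 1 was highest for 9 of the 12 NEDD8 genes, 4 of the 6 UFM1 genes and 5 of the 11 targets and partners, against 50.6% of all genes. The order tumor 1, tumor 3, tumor 2 was seen in 9, 3 and 1 of them, against 30.2% of all genes, so it was not particular to the SUMO genes.

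Proliferation genes and markers of other cells also differed between tumors, and their part in the differences of the SUMO genes was not tested. The 17 proliferation genes, led by Pcna, Mcm4 and Mcm3, summed to 476, 309 and 270 FPKM, and 16 of them were highest in tumor 1, as Sumo2 was, against 50.6% of all genes. Their sum was lowest in tumor 3, while Sumo2 was lowest in tumor 2. The median gene was also lower in tumor 3, by 0.24 on the log2 scale against tumor 1 and by 0.06 against tumor 2. The order tumor 1, tumor 3, tumor 2 was seen in 3 of the 17, against 30.2% of all genes. The 5 myeloid markers summed to 263, 89.6 and 33.2 FPKM, with Lyz2 the most abundant by its mean. Cd68 ran otherwise, with 19.6, 51.2 and 9.27 FPKM, and was above Lyz2 in tumor 2. The 4 erythroid markers summed to 199, 37.8 and 4.46 FPKM, with Hba-a1 the most abundant. The 5 B-cell markers, led by Cd79a, summed to 56.2, 13.7 and 104 FPKM, lowest in tumor 2 like Sumo2. The 6 pancreatic acinar markers, led by Ctrb1, summed to 70.5, 386 and 0.603 FPKM, and the 5 stromal markers, led by Col1a1, to 10.2, 42.1 and 0.349 FPKM, both sums highest in tumor 2, where Senp1 was highest. Of the stromal markers, Dcn was highest in tumor 1, with 5.04 against 3.27 FPKM in tumor 2. In tumor 3, Ctrb1, Cpb1, Prss2, Clps, Col1a2, Col3a1, Dcn, Pdgfrb and Hba-a2 had at most 3 reads, the floor set here. The 3 endothelial markers, led by Pecam1, summed to 13.5, 12.7 and 5.08 FPKM, although Cdh5 was highest in tumor 2, with 0.805, 1.39 and 0.126 FPKM.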

How the data were processed

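RNA-seq libraries of 3 Dnmt3b+/- PTCL (paired-end, 150 bp) were used. Per the study's methods and the labels, STAR was used to map the reads to mm10, alignments below a mapping quality of 50 were dropped, and linear FPKM from SeqMonk were deposited by the authors. Count models do not apply to FPKM, and 1 group allows no test. Bisulfite samples were not analysed here.

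The members and lists were chosen with earlier results of these data known. Named genes are the 8 genes, Dnmt3b, the 3 most abundant genes of each list, other sumoylation genes past a fold of 2, and the 5 genes closest to Sumo2; some items are not reported here. The depth was taken from genes with no reads, whose FPKM equals that of 0.9 read. With GENCODE M21 exon lengths, 92.1%, 92.1% and 92.2% of values were, to within 0.01, whole reads or the 0.9 read of genes with no reads. Genes with no reads were 42.1%, 45.7% and 48.1% of all genes. They set the depth and so met this by construction, which makes the share of whole reads among the other genes lower. Intervals are exact Poisson (levels) and Clopper-Pearson (ratios). Copies were searched with BLAST 2.17.0. The steps were tested on simulated data. Alternatives were median-of-ratios factors, a rescaling of every tumor to a sum of 1000000, another fold, a pseudocount of 1, a filter on low values, summed symbols and each tumor left out. Python 3.11, pandas 2.3.3, NumPy 2.4.6, SciPy 1.17.1, Biopython 1.88 and matplotlib 3.10.9 were used.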

Additional observations from a re-analysis of the deposited data

How the results depend on the processing

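The count of 31 sumoylation genes with a highest tumor at least 2 times the lowest was 2 (against 34.4% of all genes), and became 6 with FPKM rescaled to sum to 1000000 (39.4%), 1 with median-of-ratios factors (32.5%), 1 with FPKM + 1 (23.7%), 16 at a fold of 1.5 (62.8%), and 0 to 2 with a tumor left out (16.4% to 25.2%). For the 8 genes it was 0, and became 1 (Senp6) with the rescaled sum and 3 at a fold of 1.5. This ratio cannot rise with a tumor left out, so a count of 0 then has to stay 0. Of the 31 genes, 22 were highest in tumor 1 (against 50.6% of all genes), and 20 with median-of-ratios factors (39.0%) to 27 without tumor 2 (67.6%); without tumor 1 this count has no value. The median coefficient of variation, 0.218 against 0.268 over all genes, was 0.290 against 0.305 with the rescaled sum, 0.155 against 0.254 with median-of-ratios factors, 0.186 against 0.220 with FPKM + 1 and 0.0831 to 0.211 against 0.193 to 0.277 with a tumor left out. The ratio of tumor 1 to tumor 2 for Sumo2, 1.76, was 1.93 with the rescaled sum and 1.58 with median-of-ratios factors. The rescaled sum changes the unit, so all 8 means moved with it, and none of the 8 moved by 1 SD with median-of-ratios factors. Leaving out 1 of 3 tumors cannot move a mean by 1 SD of the 3 values, so for the means it decides nothing. The settings for the counts of the 8 genes, the ratio and percentile of Sumo2 and the Sumo3 gene model were added after seeing the data. No paired analysis was possible because the table holds a single group. Of the 8 genes, depth limits Pias4 most, with 293 reads in tumor 3, and in the list of 31 genes Rwdd3 had 54 to 81 reads.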
